A study of Mus musculus with 6 samples.

Results

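The cell cycle cyclins and 2 of their kinase partners were followed across 6 arrays of mouse CD8+ T cells. The members were named as D-type cyclins (Ccnd1, Ccnd2, Ccnd3), E-type cyclins (Ccne1, Ccne2), cyclin A2 (Ccna2), B-type cyclins (Ccnb1, Ccnb2), Cdk1 and Cdk6, and where a gene had several probe sets the one with the highest mean stood for it. Of these 10 genes, 9 had a probe set carrying that symbol alone in the platform annotation, out of 19938 such genes, and all 9 were among the 11147 genes tested. No probe set carried the symbol Ccnb1, so that gene has no value here.

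All cells came from the spleens of female C57BL/6 mice carrying the Pmel-1 T cell receptor transgene, which recognises the melanocyte antigen gp100, and ages were not given in the labels. Each of 3 groups held 2 arrays. Naive cells, CD8+ and Thy1.1+ by sorting, went to RNA without culture. IL-2 cells and IL-12 cells were both primed with gp100 for 4 days and given IL-2 or IL-12 for 6 days. Whether primed cells were sorted is not in the labels. The study compared the cytokines to look for what lets such cells act on tumours in vivo.

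Cyclins are regulatory subunits that switch on cyclin-dependent kinases (Cdks), and the order in which they appear drives the phases of the cell cycle. D-type cyclins bind Cdk4 and Cdk6 in G1 and start the phosphorylation of the retinoblastoma protein, E-type cyclins with Cdk2 bring cells into S phase, cyclin A2 acts through S phase and G2, and B-type cyclins with Cdk1 drive mitosis. Naive T cells rest outside the cycle until their receptor is engaged, after which they divide rapidly. In lymphocytes cyclin D2 and cyclin D3 are the D-type cyclins in common use, whereas cyclin D1 is best known from epithelial and other non-lymphoid cells.

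Against naive cells, both primed groups held far more transcript of the S, G2 and M genes Ccna2, Ccnb2 and Cdk1, which rose by 4.24 to 4.63 on the log2 scale, and an intermediate rise of the E-type cyclins. The G1 genes moved much less and in both directions. Between the cytokines, Ccnd3, Ccne1 and Ccne2 were higher in IL-12 than in IL-2 cells, by 0.84, 0.64 and 0.70 on the log2 scale. Of these calls, only that of Ccnd3 held when each array was left out in turn. Ccna2, Ccnb2 and Cdk1 did not pass the test, and whether the phases differed from each other in this was not tested. Values are log2 values made with RMA (robust multi-array average), and they can be compared between arrays for 1 gene but not between genes. In RNA from a bulk of cells, a larger share of cycling cells and more transcript per cell cannot be told apart. Differences come with the standard error of a limma fit over all 6 arrays (n = 2 arrays per group), and a call means an adjusted p (Benjamini-Hochberg over all tested genes) under 0.05. Separate mice or cultures within a group are not stated, so p-values may measure technical spread only. The IL-2 and IL-12 comparisons with naive cells share the same 2 naive arrays.

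Ccna2, Ccnb2 and Cdk1 rose together, and the promoters of Cdk1 and Ccnb2, the mitotic kinase and one of its cyclins, are shown for that reason beside those of Ccne1 and Ccnd3, which differed between the cytokines. The sequences are from RefSeq, build GRCm38.p6, and give the 250 bases before an annotated start site, 5′ to 3′ on the strand of the gene. Capitals mark 3 kinds of letters searched on both strands: the cell cycle homology region TTTGAA (CHR), the CCAAT box, and an E2F-type site spelled TTTCCCGC, TTTCGCGC, TTTGCCGC or TTTGGCGC. No motif contains another on either strand, though neighbouring matches can share end letters. Ccnd3 has 2 annotated start sites.
Cdk1, chr10:69352913-69353162, minus strand: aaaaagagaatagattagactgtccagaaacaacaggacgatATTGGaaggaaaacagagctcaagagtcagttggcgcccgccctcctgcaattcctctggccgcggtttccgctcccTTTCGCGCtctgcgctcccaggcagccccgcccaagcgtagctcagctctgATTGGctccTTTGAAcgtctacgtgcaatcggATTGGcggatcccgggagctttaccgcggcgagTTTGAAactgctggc
Ccnb2, chr9:70421555-70421804, minus strand: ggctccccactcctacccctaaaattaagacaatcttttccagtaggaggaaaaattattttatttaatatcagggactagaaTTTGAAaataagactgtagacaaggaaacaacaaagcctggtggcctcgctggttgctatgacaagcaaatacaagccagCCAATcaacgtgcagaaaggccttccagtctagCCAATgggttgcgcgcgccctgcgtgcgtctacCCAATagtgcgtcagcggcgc
Ccne1, chr7:38107491-38107740, minus strand: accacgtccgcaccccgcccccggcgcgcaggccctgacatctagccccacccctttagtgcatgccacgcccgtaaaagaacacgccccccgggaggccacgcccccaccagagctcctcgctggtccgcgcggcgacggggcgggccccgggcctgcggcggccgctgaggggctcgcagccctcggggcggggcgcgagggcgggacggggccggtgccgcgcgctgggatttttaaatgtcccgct
Ccnd3, start 1, chr17:47504801-47505050, plus strand: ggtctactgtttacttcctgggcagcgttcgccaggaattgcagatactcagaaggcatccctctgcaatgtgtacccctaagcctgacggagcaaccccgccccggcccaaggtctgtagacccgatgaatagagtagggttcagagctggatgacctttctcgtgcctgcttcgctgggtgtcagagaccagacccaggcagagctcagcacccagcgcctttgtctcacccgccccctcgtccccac
Ccnd3, start 2, chr17:47593217-47593466, plus strand: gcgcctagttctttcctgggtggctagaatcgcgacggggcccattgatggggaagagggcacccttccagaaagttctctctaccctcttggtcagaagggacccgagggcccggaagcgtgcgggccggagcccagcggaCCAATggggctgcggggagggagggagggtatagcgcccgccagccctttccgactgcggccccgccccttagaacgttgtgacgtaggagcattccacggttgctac

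The Cdk1 window held 2 CHR matches, 3 CCAAT boxes (all on the opposite strand) and 1 E2F-type match, TTTCGCGC, 131 to 124 bases before the start. The Ccnb2 window held 3 CCAAT boxes, spaced along its last 87 bases, and 2 CHR matches. The second of these lies just past the annotated start, at bases 5 to 10 of the first 20 transcribed bases, ggtaTTTGAAtcgcggaccg. The Ccne1 window held none of the motifs, and of the Ccnd3 windows only that of start 2 held a match, 1 CCAAT box. The Cdk6 window, also in the table, held none. That of Ccnb1, a B-type cyclin with no expression value here, held 2 CCAAT boxes and no TTTGAA or E2F-type match. Other spellings of the CHR or of an E2F-type site were not searched in any window. Neither is therefore excluded where no match was found, as in the Ccne1 window. For scale, among 32851 windows of 300 bases in the table (250 before a start and 50 after it), 17.9% held a CHR, 37.4% a CCAAT box, 2.26% an E2F-type match, 6.95% both a CHR and a CCAAT box, and 0.119% all 3. A match describes letters in these windows and no binding was measured. Promoter sequences were matched for 6 of the 10 members.

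**Figure D1:**
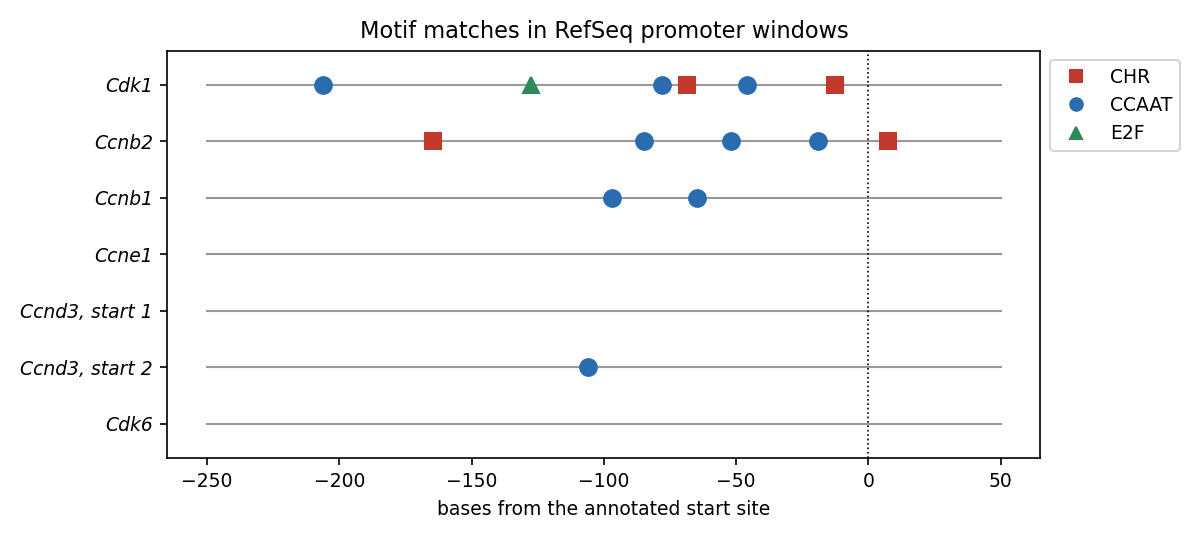
Positions of CHR (squares), CCAAT (circles) and E2F-type (triangle) matches in the RefSeq windows of Cdk1, Ccnb2, Ccnb1, Ccne1, Ccnd3 (2 start sites) and Cdk6, against bases from the annotated start site (dotted line). Cdk1 and Ccnb2 each hold 3 CCAAT boxes and 2 CHR matches, Ccnb1 holds 2 CCAAT boxes, and Ccne1 and Cdk6 hold no match.

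In G1, Ccnd2, the D-type cyclin induced early after antigen receptor signalling in lymphocytes, read 12.38 and 12.50 on the naive arrays, 12.04 and 12.09 on the IL-2 arrays and 11.93 and 11.86 on the IL-12 arrays. It was thus highest in naive cells, and no array of one group overlapped those of another. It fell by 0.54 on the log2 scale in IL-12 against naive cells (SE 0.10; limma adjusted p = 0.00187). In IL-2 against naive cells it fell by 0.38 (SE 0.10; limma adjusted p = 0.0166). This call did not hold when IL-2 replicate 1 (0.113) or IL-2 replicate 2 (0.0748) was left out, or when array medians were set equal (0.096). Between IL-12 and IL-2 cells the difference was -0.17 (95% interval -0.40 to 0.07; limma adjusted p = 0.285).

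Ccnd3, the cyclin D needed for the expansion of several lymphocyte precursors, read 10.85 and 10.98 on the naive arrays, 11.06 and 11.10 on the IL-2 arrays and 11.95 and 11.90 on the IL-12 arrays. The IL-12 arrays stood apart and the other groups lay close together. The mean log2 value of 11 B cell markers, 8.86 and 8.74 on the naive, 6.55 and 6.55 on the IL-2 and 7.46 and 7.52 on the IL-12 arrays, also differed between the groups, and their part in the Ccnd3 values was not tested. Ccnd3 was 1.80-fold higher in IL-12 than in IL-2 cells (log2 fold change 0.84 ± 0.10, limma adjusted p = 0.000797) and 2.01-fold higher than in naive cells (limma adjusted p = 4.85e-05). In IL-2 against naive cells the difference was 0.16 (95% interval -0.07 to 0.40; limma adjusted p = 0.224), so only the IL-12 group was shown to differ. The IL-12 call held in all 15 alternative settings.

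Ccnd1 read 6.99 and 6.94 in naive, 6.40 and 6.72 in IL-2 and 6.80 and 6.89 in IL-12 cells. All arrays lay near 6.83, the median of all values and the level used as a filter, and 3 Y-linked genes, which female cells lack, had group means from 3.32 to 4.96. Only the naive arrays and IL-12 replicate 2 lay above 6.83, so without its naive arrays Ccnd1 would not have passed the filter. Its fall of 0.41 in IL-2 against naive cells (limma adjusted p = 0.0271) was lost without IL-2 replicate 1 (0.234), without naive replicate 1 (0.0746), with quantile normalization (0.0793) and with median centring (0.0904). The IL-12 differences were -0.12 from naive (limma adjusted p = 0.448) and 0.29 from IL-2 cells (95% interval 0.00 to 0.57; limma adjusted p = 0.139).

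Cdk6, the kinase partner of the D-type cyclins, read 9.98 and 9.81 in naive cells, 10.58 and 10.57 in IL-2 cells and 10.72 and 11.07 in IL-12 cells. All 4 primed arrays lay above both naive arrays. It was 1.61-fold higher in IL-2 and 2.0-fold higher in IL-12 cells than in naive cells (limma adjusted p = 0.0034 and 0.00027). The IL-12 arrays differed from each other by about as much as they did from the IL-2 arrays, and the difference between the cytokines was 0.32 (95% interval 0.01 to 0.62; limma adjusted p = 0.132). Cdk4, the other kinase of the D-type cyclins and not one of the 10 members, had group means of 11.69, 12.24 and 12.43 in naive, IL-2 and IL-12 cells. The G1 members therefore ran in several orders over the same 6 arrays, with Ccnd2 falling while Cdk6 rose.

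Among the E-type cyclins, Ccne1 read 8.81 and 8.92 on the naive arrays, 10.70 and 10.55 on the IL-2 arrays and 11.22 and 11.30 on the IL-12 arrays. The groups followed one another without overlap, naive lowest and IL-12 highest. Ccne1 was 3.38-fold higher in IL-2 and 5.27-fold higher in IL-12 than in naive cells (limma adjusted p = 3.34e-06 and 3.48e-07). It was 1.56-fold higher in IL-12 than in IL-2 cells (log2 fold change 0.64 ± 0.11; limma adjusted p = 0.00441). Leaving out IL-2 replicate 2 ended this call (0.0642).

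Ccne2 read 6.06 and 5.71 in naive cells, 8.90 and 9.0 in IL-2 cells and 9.36 and 9.94 in IL-12 cells. The order was that of Ccne1, with a wider gap between the IL-12 arrays. Its naive values lay above the Y-linked genes but below the filter level, so the gene entered the test through its primed arrays alone and a difference from naive cells was built in. On the RMA scale it was 8.37-fold higher in IL-2 and 13.6-fold higher in IL-12 than in naive cells (limma adjusted p = 3.49e-06 and 6.68e-07). Its difference between IL-12 and IL-2 cells was 0.70 ± 0.19 (limma adjusted p = 0.0318), which became 0.41 without IL-12 replicate 2 (0.2), and the call was also lost without IL-2 replicate 1 (0.159) or IL-2 replicate 2 (0.128). Of the 2 E-type cyclins, neither kept its IL-12 against IL-2 call when each array was left out in turn.

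In S phase, G2 and mitosis, Ccna2 read 7.74 and 8.12 on the naive arrays, 12.48 and 12.47 on the IL-2 arrays and 12.52 and 12.60 on the IL-12 arrays. Primed arrays lay far above naive ones and close to each other. It was 23.4-fold higher in IL-2 and 24.8-fold higher in IL-12 than in naive cells (limma adjusted p = 6.14e-08 and 4.08e-08). Between the cytokines the difference was 0.08 (95% interval -0.22 to 0.39; limma adjusted p = 0.704).

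Ccnb2, which with Cdk1 takes part in the entry into mitosis, read 7.92 and 8.47 in naive, 12.62 and 12.69 in IL-2 and 12.56 and 12.60 in IL-12 cells. Ccnb2 and Ccnd2 were the 2 members with a lower mean in IL-12 than in IL-2 cells, and the Ccnb2 difference of -0.07 did not pass the test (95% interval -0.45 to 0.30; limma adjusted p = 0.793). Against naive cells it was 22-fold higher in IL-2 and 20.9-fold higher in IL-12 cells (limma adjusted p = 1.51e-07 and 1.35e-07).

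Cdk1, the kinase that triggers mitosis, read 6.98 and 7.58 in naive, 11.50 and 11.54 in IL-2 and 11.67 and 11.76 in IL-12 cells. It was 18.9-fold and 21.6-fold higher than in naive cells (limma adjusted p = 2.81e-07 and 1.81e-07), and its difference between the cytokines was 0.19 (95% interval -0.21 to 0.59; limma adjusted p = 0.482). For all 3 of these genes naive replicate 2 read above naive replicate 1, by 0.38 to 0.60, whereas 60.9% of all tested genes read higher on that array. Leaving out either naive array changed no call of theirs.

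**Figure D2:**
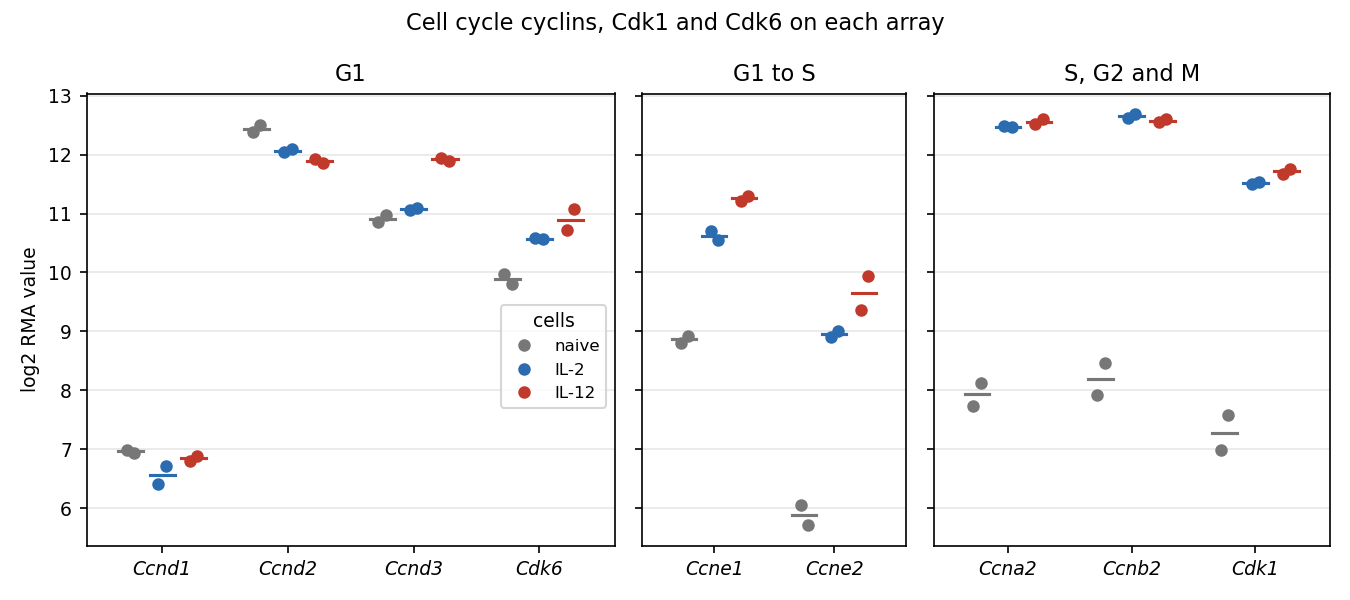
The log2 RMA value (vertical axis) of the 9 measured members on each of 6 arrays, by phase; points are arrays, short lines group means, grey naive, blue IL-2 and red IL-12. Ccna2, Ccnb2 and Cdk1 sit at 6.98 to 8.47 on the naive arrays and at 11.50 to 12.69 on the primed arrays, and the IL-12 arrays of Ccnd3 and Ccne1 lie above both other groups.

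Counted over the 9 measured members, 6 rose and 2 fell in IL-2 against naive cells, where 45.7% of all tested genes were called (25.8% up and 19.9% down). Both falls, those of Ccnd1 and Ccnd2, were lost with array medians set equal and without IL-2 replicate 1. In IL-12 against naive cells 7 rose and 1 fell, against 57.9% called (31.2% up and 26.7% down). Between the cytokines 3 were higher in IL-12 cells and none was lower by limma, where 20.8% were called (9.82% up and 11% down), and 5 of the 9 had an unadjusted p under 0.05. Without IL-2 replicate 2 (naive arrays kept in the fit) the 3 calls became 1, that of Ccnd3. The arrays of the 2 groups did not overlap for any of the 9 members in any of the comparisons, but this also held for 73.9%, 79.2% and 69.5% of all tested genes in the same order. The median log2 fold change of the members was 1.76, 2.40 and 0.29, beside 0.01, 0.04 and 0.02 over all tested genes.

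By phase, the median log2 fold change of the 4 G1 members, the 2 E-type cyclins and the 3 S, G2 and M members was -0.11, 2.41 and 4.46 in IL-2 against naive cells and 0.44, 3.08 and 4.43 in IL-12 against naive cells. Between the cytokines (IL-12 minus IL-2) these medians were 0.30, 0.67 and 0.08. For the S, G2 and M members none of 3 was called by limma between the cytokines, and none had an unadjusted p under 0.05. Their 95% intervals reached at most 0.59 on the log2 scale, which does not show that the cytokines acted alike. Whether the E-type cyclins differed more than the mitotic genes between the cytokines was not tested.

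**Figure D3:**
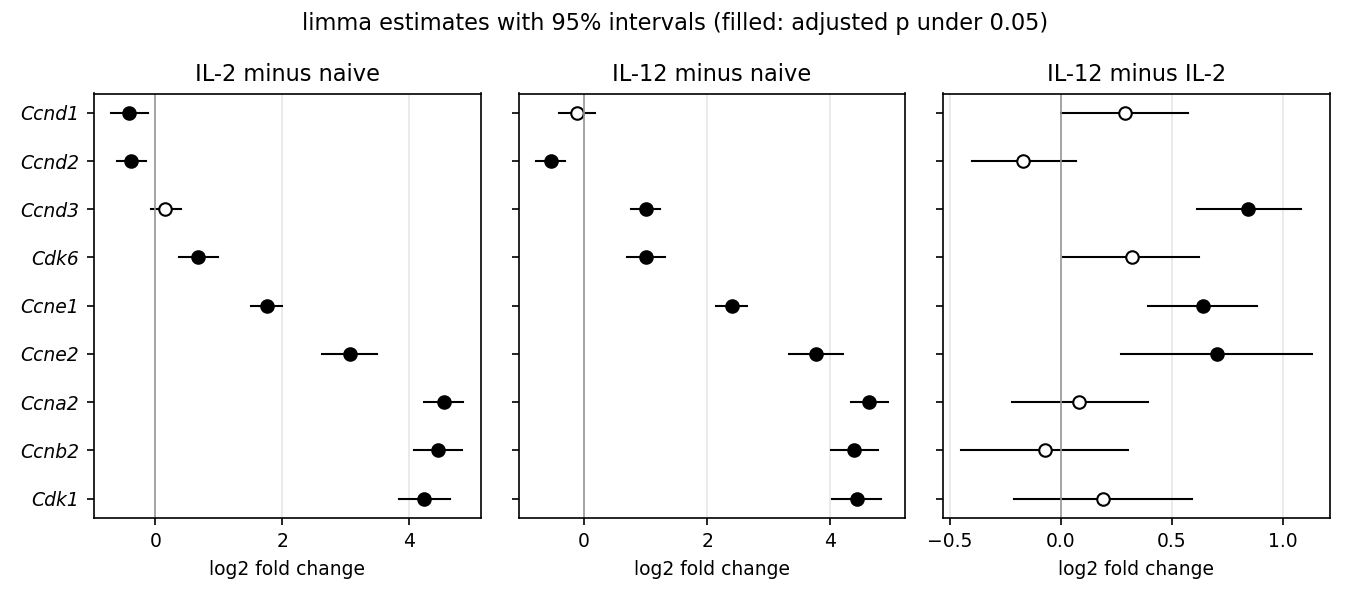
The limma log2 fold change (horizontal axis, scale differing between panels) of each measured member in the 3 comparisons, with 95% intervals; filled points have an adjusted p under 0.05. Against naive cells the estimates climb from the G1 genes to Ccna2, Ccnb2 and Cdk1, and between the cytokines only Ccnd3, Ccne1 and Ccne2 are filled.

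Of 7 other tested cyclins linked to the cell cycle, 4 rose and 1 fell in IL-2 against naive cells (where 45.7% of all tested genes were called). Between the cytokines 1 was higher and 2 were lower in IL-12 cells (20.8% called). In IL-12 against naive cells the share called was 57.9%. Leaving out IL-2 replicate 1 made the first count 3 rising and none falling. In IL-12 against naive cells 4 rose and 2 fell, or 3 and none without naive replicate 2 or without IL-12 replicate 1. Ccnf, the F-box cyclin that marks proteins for destruction in G2, followed the mitotic members, with group means of 6.31, 10.22 and 10.28 in naive, IL-2 and IL-12 cells (IL-2 against naive 3.91 ± 0.12; limma adjusted p = 6.3e-08). The naive values of Ccnf, 6.37 and 6.24, lay below the filter level, so its difference from naive cells was built in. Ccno, a cyclin best known for the formation of multiple cilia, rose by 1.13 ± 0.13 in IL-12 against IL-2 cells (limma adjusted p = 0.000656). It read 6.37 and 6.55 on the IL-2 arrays and 7.50 and 7.69 on the IL-12 arrays, so its lower values lay under the median of all values. Without its IL-12 arrays Ccno would not have passed the filter. Ccng2, a cyclin linked to cell cycle arrest, rose by 0.78 ± 0.11 in IL-2 against naive cells and was 0.46 lower on the log2 scale in IL-12 than in IL-2 cells (limma adjusted p = 0.0219). The second call was lost without any 1 of the 4 primed arrays (adjusted p from 0.0586 to 0.196). The other lower cyclin was Ccni, at -0.44 (limma adjusted p = 0.0456), lost in the same way (adjusted p from 0.0734 to 0.268). Of 7 cyclins that serve transcription, 2 rose and 1 fell in IL-2 (1 rose and none fell without IL-2 replicate 2) and 3 rose and 2 fell in IL-12 against naive cells (2 and 1 without IL-12 replicate 2). None was called between the cytokines by limma, where 1 had an unadjusted p under 0.05.

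Among 14 tested Cdks outside the members, 3 rose and 3 fell in IL-2 against naive cells, where 45.7% of all tested genes were called (57.9% in IL-12 against naive cells and 20.8% between the cytokines). The 6 calls became 10 without naive replicate 2 and 3 without IL-2 replicate 2. In IL-12 against naive cells 4 rose and 3 fell, or 2 and 2 without IL-12 replicate 2. Cdk2, the partner of the E-type cyclins and of cyclin A2, rose by 1.71 ± 0.11 (limma adjusted p = 3.5e-06) and had means of 9.03, 10.75 and 10.66 in naive, IL-2 and IL-12 cells. Cdk4 rose by 0.55 ± 0.11, and Cdk13, a transcriptional kinase, fell by 0.76. Between IL-12 and IL-2 cells 1 of 14 was called. This was Cdk5, a kinase studied mostly in neurons, which fell by 0.41 (limma adjusted p = 0.0384); the call ended when any 1 of the 4 primed arrays was left out (adjusted p up to 0.247).

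Activators of the cyclin-Cdk complexes all rose in IL-2 against naive cells, 9 of 9 tested, with a median of 3.17 on the log2 scale. Plk1, the polo-like kinase of mitotic entry, rose by 4.12 ± 0.10, the Cdk-binding subunit gene Cks1b by 3.65 and Cdc25c, a phosphatase that activates Cdk1, by 3.53. Cdc25c read 5.36 on both naive arrays, below the filter level. It entered the test through its primed arrays alone, so a difference from naive cells was built in. In IL-12 against naive cells 8 of the 9 rose. Among all tested genes 45.7% were called in IL-2 and 57.9% in IL-12 against naive cells, and 20.8% between the cytokines. Between the cytokines 1 was called, Cdc25a, a phosphatase acting on Cdk2 at S phase entry, with a log2 fold change of 0.43 (limma adjusted p = 0.0344); leaving out any 1 of the 4 primed arrays ended it (adjusted p from 0.0621 to 0.267). In a fit of the IL-2 and IL-12 arrays alone 3 of the 9 were called, 2 higher and 1 lower.

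Of 8 tested Cdk inhibitors and inhibitory kinases, 6 rose in IL-2 against naive cells, and 7 rose and 1 fell in IL-12 against naive cells. The shares of all tested genes called were 45.7% and 57.9% there, and 20.8% between the cytokines. Cdkn3, a phosphatase acting on Cdks that is itself made in dividing cells, rose by 3.46 ± 0.11, and the kinase gene Wee1 by 2.60, in IL-2 cells. Wee1 read 6.41 and 7.20 on the naive arrays, so it would not have passed the filter without its primed arrays. Between the cytokines 1 rose and 1 fell, and both calls held when each array was left out in turn, while 4 were called in a fit of the IL-2 and IL-12 arrays alone. Cdkn1b, which encodes the inhibitor p27, read 11.39 and 11.45 in IL-2 cells and 10.82 and 10.57 in IL-12 cells and fell by 0.73 (limma adjusted p = 0.00306), to below its naive values of 11.32 and 11.37. Cdkn2a, which encodes p16 and p19ARF, read 7.35 and 7.26 in IL-2 and 8.18 and 8.0 in IL-12 cells, 0.78 ± 0.11 higher (limma adjusted p = 0.00171). The 2 inhibitor genes thus moved in opposite directions on the arrays on which Ccnd3 was higher.

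The ubiquitin machinery that destroys cyclins showed no call between the cytokines in 24 tested genes by limma, where 3 had an unadjusted p under 0.05, and 1 was called without IL-12 replicate 1 or in a fit of the IL-2 and IL-12 arrays alone. In IL-2 against naive cells 13 of them rose and 1 fell, with a median of 0.37, and in IL-12 against naive cells 16 rose and 2 fell. The shares of all tested genes called were 45.7% and 57.9% there, and 20.8% between the cytokines. The largest rises in IL-2 against naive cells were of genes whose products act on or with the anaphase-promoting complex. Ube2c, a ubiquitin-conjugating enzyme of that complex, rose by 3.52, its activator gene Cdc20 by 3.28, and Fbxo5, which encodes an inhibitor of it, by 2.63.

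Of 13 tested genes of the retinoblastoma and E2F families, which carry the signal from cyclin D to transcription, 10 rose and 1 fell in IL-2 against naive cells. E2f8 rose by 3.95 and E2f2 by 3.52. The naive values of E2f8, 5.93 and 6.10, lay below the filter level, so its difference from naive cells was built in. In IL-12 against naive cells 11 rose, where 57.9% of all tested genes were called (45.7% in IL-2 against naive cells). Between the cytokines 5 were higher and 1 was lower in IL-12 cells, against 20.8% of all tested genes called, but 1 of these 6 calls held when each array was left out in turn, and the 6 became 3 with no filter on low values or with array medians set equal. That was Tfdp2, a dimerisation partner of E2F factors, which fell by 0.77 (limma adjusted p = 0.00218). E2f1 was 0.40 higher (limma adjusted p = 0.0376), which did not hold without any 1 of the 4 primed arrays (adjusted p up to 0.258). Of 7 genes of the DREAM and B-Myb complexes, which time the mitotic genes through the CHR, 5 rose in IL-2 and 6 in IL-12 against naive cells, led in IL-2 cells by Foxm1 at 3.33 and Mybl2 at 2.08. Mybl2 alone was called between the cytokines, 0.59 ± 0.10 higher in IL-12 cells (limma adjusted p = 0.00519), and leaving out IL-2 replicate 1 ended that call (0.0582). Foxm1 differed by 0.00 (limma adjusted p = 0.989).

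All 8 proliferation markers rose against naive cells in both primed groups. In IL-2 cells Mki67, the gene of the Ki-67 antigen, was up by 4.02, Birc5 by 4.19 and Top2a by 4.32. Top2a has 2 probe sets, and its rise was as low as 2.5 over the alternative settings other than single arrays left out. The naive values of Birc5, 6.63 and 6.56, lay below the filter level, so its difference from naive cells was built in. Among all tested genes 45.7% were called in IL-2 and 57.9% in IL-12 against naive cells, and 20.8% between the cytokines. Between the cytokines 3 rose, the replication genes Mcm2 by 0.70, Mcm6 by 0.57 and Pcna by 0.49 (limma adjusted p = 0.00819, 0.0116 and 0.0116). These 3 calls were lost without IL-2 replicate 2 (adjusted p = 0.0798, 0.121 and 0.122) and without IL-12 replicate 2 (0.0634, 0.0993 and 0.0784), those of Mcm2 and Pcna also without IL-2 replicate 1 (0.0515 and 0.0559) and that of Pcna without IL-12 replicate 1 (0.0635). The other 5 did not pass. Among them Mki67 and Top2a differed by -0.07 and 0.00 (limma adjusted p = 0.697 and 0.995), and Rrm2 and Tyms, which serve the supply of nucleotides in S phase, by 0.31 and -0.03 (limma adjusted p = 0.307 and 0.9).

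**Figure D4:**
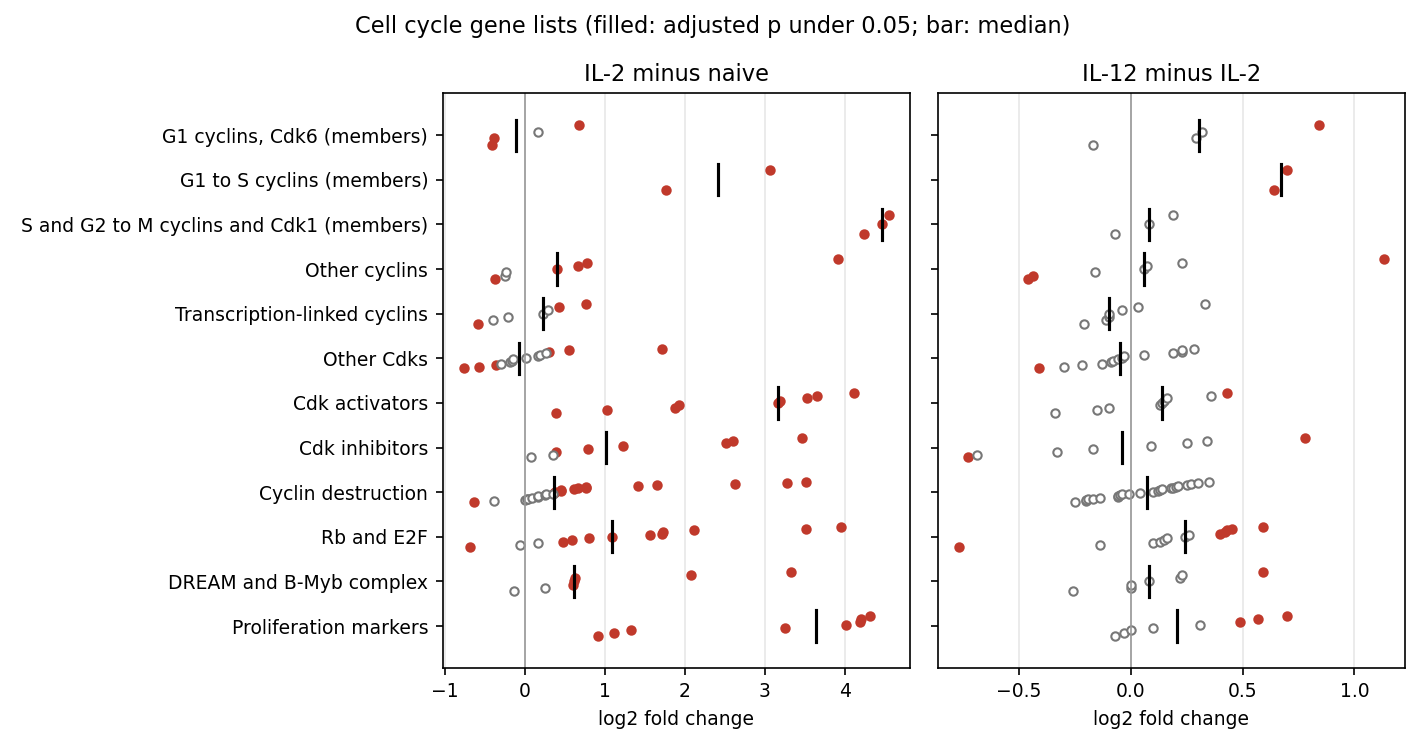
The log2 fold change (horizontal axis, scale differing between panels) of every tested gene in 12 cell cycle lists, for IL-2 minus naive and IL-12 minus IL-2; filled points have a limma adjusted p under 0.05 and bars are list medians. In the left panel the medians of Cdk activators (3.17) and proliferation markers (3.63) lie between those of the E-type cyclins (2.41) and of the S, G2 and M members (4.46), and in the right panel no median exceeds that of the E-type cyclins (0.67).

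By the root mean square difference of array values after each gene was centred on its mean, a description over 6 arrays of 3 groups, the tested genes most like Cdk1 were Rrm2 and Aurkb, at 0.0632 and 0.0740 on the log2 scale, where the median gene lay at 2.04. Those most like Ccna2 were Ncapg (0.0506) and Prr11 (0.0590), and those most like Ccnb2 were Nusap1 (0.0865) and Prr11 (0.0962). Ccne1 lay nearest to Orc6 (0.0509) and Fen1 (0.0741), and Ccne2 to Rad54l and Mcm10 (0.206 for each). Ccnd3 lay nearest to Armcx6 (0.0692) and Ern1 (0.0724), where the median gene lay at 0.476. Ern1 read 7.93 and 7.99 in naive, 7.98 and 7.95 in IL-2 and 8.86 and 8.82 in IL-12 cells. The nearest to Ccnd2 were Rpl22 and Gne, to Ccnd1 Ldlrad1 and Czib, and to Cdk6 Smn1 and Lnpk, at 0.0298 to 0.0607, where median genes lay at 0.306 to 0.46.

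Cd8b1 read 12.55 to 13.20 and Cd3e 12.76 to 13.31 on all 6 arrays, and Cd4 read 6.19 to 6.61. For the marker counts that follow, 45.7% of all tested genes were called in IL-2 and 57.9% in IL-12 against naive cells, and 20.8% between the cytokines. Of 9 tested genes of CD8 T cell identity, 1 rose and 1 fell in IL-2 and 6 fell in IL-12 against naive cells. Between the cytokines 5 were lower in IL-12 than in IL-2 cells, among them Cd8b1 at -0.44 and Cd5 at -0.66. Of these calls between the cytokines, only that of Cd5 held when each array was left out in turn. Against naive cells neither IL-2 call held in that way, and of the IL-12 calls only those of Cd5, Cd8a and Cd8b1 did. Of 4 tested markers of CD4 and regulatory T cells, 3 rose in both primed groups, and 2 were lower in IL-12 than in IL-2 cells. Neither of these 2 calls between the cytokines held when each array was left out in turn. The markers that rose were Ctla4 (4.20 in IL-2 against naive cells), Ikzf2 (1.64) and Zbtb7b (1.87). The other was Foxp3, with group means of 7.19, 7.22 and 7.17 in naive, IL-2 and IL-12 cells, called in none of the 3 comparisons. These examples were chosen after their values were seen. The arrays of a group correlated at 0.986 to 0.994 over tested genes, which are not independent replicates. Markers of B cells moved with the groups: all 11 tested fell in both primed groups against naive cells, and 9 of 11 were higher in IL-12 than in IL-2 cells. Cr2, Fcer2a, Ebf1 and Blk lay below the filter level on every primed array. These markers entered the test through their naive arrays alone, so their falls were built in. Between the cytokines the calls of Blk and Pax5 did not hold when each array was left out in turn. Ms4a1 read 6.47 and 6.07 in IL-2 cells and 8.29 and 8.46 in IL-12 cells. Its difference of 2.11 was the largest of the 11, whose median was 0.90. Cr2 (0.22) and Fcer2a (-0.06) were not called between the cytokines. Of 8 myeloid and dendritic markers 7 fell in IL-2 and 6 fell and 1 rose in IL-12 against naive cells, and 2 were higher with IL-12 than with IL-2, or 1 without IL-2 replicate 2 or either IL-12 array. The falls of Lyz2, Csf1r, Adgre1 and Mpeg1 were likewise built in, since these lay below the filter level on every primed array. Itgam, the marker that rose, passed the filter through its IL-12 arrays alone. The part of B cells and of myeloid cells in the values of Ccne1 and Ccne2 was not tested. Of 3 natural killer markers tested, 1 rose and 2 fell in IL-2 and 2 fell in IL-12 against naive cells, and 2 were lower in IL-12 than in IL-2 cells, Eomes at -1.35 and Klrc1 at -0.68. Between the cytokines the Eomes call held when each array was left out in turn, and the Klrc1 call did not. The 2 erythroid and platelet markers tested were called in none of the 3 comparisons by limma, where 1 had an unadjusted p under 0.05 in IL-12 against naive cells. With each array centred on its median, the calls against naive cells became 3282 up and 1562 down in IL-2 (2873 and 2222 as deposited) and 4051 up and 2279 down in IL-12 cells (3482 and 2972 as deposited), and the median of all tested genes shifted by 0.10 and 0.12.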

How the data were processed

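Total RNA of 6 samples was hybridised to Affymetrix arrays. The authors deposited 1 log2 value per array for each of 35556 probe sets. The submitters' processing notes name RMA, which corrects background, normalises arrays by quantiles and summarises probes, so a shift shared by most genes would be hidden. No build or software setting is named there. Probe sets with 1 gene symbol in the platform annotation (21789) were used, 1 per gene, and genes with at least 2 of 6 arrays above the 50th percentile of all values (6.83) were tested with limma 3.58.1 in R 4.3.3 (lmFit, eBayes, all 6 arrays, 3 residual and 5.62 prior degrees of freedom), two-sided, with Benjamini-Hochberg adjustment at 0.05. The fit was tested on simulated data.

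The members and gene lists were chosen with earlier results of these data known, and no list was tested as a set. Named beside the members were, from each cell cycle list, genes among the 4 with the smallest p between the cytokines and the 3 in IL-2 against naive cells, and the 2 genes nearest in pattern to each member. Markers of other cells were given by list. Alternatives are in the closing section. Promoter windows came from RefSeq (GRCm38.p6). The number of arrays limits the precision.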

Additional observations from a re-analysis of the deposited data

How the results depend on the processing

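The 27 member results (9 genes in 3 comparisons) were recomputed under 10 kinds of alternative, 402 values in all. None reversed, 391 kept their side of the threshold and 11 lost the call, those of Ccnd1 and Ccnd2 in IL-2 against naive and of Ccne1 and Ccne2 in IL-12 against IL-2 cells given above. Ccnd1 could not be tested with the filter at the 75th percentile. The number of members called in IL-12 against IL-2 cells was 1 to 3 over single arrays left out. The number of genes called was 737 to 3533 in that comparison and 3341 to 5786 in IL-2 against naive cells over single arrays left out, and 3533 in IL-12 against IL-2 cells with only the 2 groups compared (2321 with all arrays). A group left with 1 array adds nothing to the estimate of the spread, so leaving out 1 array of the third group equals the fit of the other 2 groups alone; without 1 array of a group compared, the other 2 groups alone set the spread. Of 940 values of the other named genes 867 kept their side, 49 lost the call, 23 gained it and 1 reversed: Ccnl1 in IL-12 against IL-2 cells went from -0.21 to 0.03 without IL-2 replicate 1, and from -0.45 to 0.03 over single arrays left out.

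Whether same-numbered arrays of different groups share a mouse or a culture is not stated. Their deviations from the group means correlated at 0.02 for naive and IL-2, -0.02 for naive and IL-12 and 0.15 for IL-2 and IL-12 arrays. These values cannot decide it, since a shared origin need not shift all genes together. With the replicate block 5128, 6471 and 2414 genes and 8, 8 and 3 members were called in IL-2 against naive, IL-12 against naive and IL-12 against IL-2 cells.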
